A study of Mus musculus with 106 samples.

Results

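Rab proteins are small GTPases that mark the membranes of the cell, and 59 of the 21938 protein-coding mouse genes on chromosomes 1 to 19, X and Y encode one by name. Members were taken by symbol, as Rab followed by digits and at most 1 letter, so that regulators such as Rabgap1l and effectors such as Rab11fip5 stayed out. A Rab is switched on by an exchange factor (GEF) and off by a GTPase-activating protein (GAP), and it is carried between membranes by the GDI proteins that mask its lipid tail. In its active form it gathers effectors that move, tether or fuse vesicles. In macrophages, Rab proteins are known for the steps by which a phagosome matures, for the recycling of receptors and for secretion, while cells of the marrow use them for granules and receptor uptake as well.

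The promoters of these genes were read in ChIP-seq peak lists of 2 histone marks, H3K27ac, an acetylation found at promoters and enhancers in use, and H3K4me3, a methylation found at promoters in use. C57BL/6J mice of 12 to 14 weeks were controls or had been made diabetic with streptozotocin, at 42 to 45 mg/kg a day for 5 days, and diabetic tissue was taken 6 weeks later at a blood glucose above 13.9 mmol/L. HSCs were marrow cells left after depletion of cells carrying CD3, CD4, B220, Ter119 or Gr1, a fraction that is enriched for hematopoietic stem cells but holds other progenitors too. Bone marrow-derived macrophages (BMDMs) were grown for 7 days in L929-conditioned medium with 5 mmol/L glucose, so that diabetic and control cells had the same glucose in culture, and were then unstimulated or given 100 ng/mL LPS with 10 ng/mL IFN-γ for 16 hours. Streptozotocin was given to the diabetic mice, so the agent and the diabetes cannot be told apart. Each mark had 35 lists in 6 groups, which were control and diabetic HSCs, unstimulated BMDMs and LPS+IFN-γ BMDMs, with 6 libraries each except for 5 of unstimulated diabetic BMDMs.

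Read depth is unknown, because the lists hold peaks and no read totals. A list held 51162 to 176559 peaks for H3K27ac and 13730 to 277213 for H3K4me3, and the shortest was that of diabetic HSC replicate 6 in H3K4me3. Labels were checked on marker promoters with the rank score defined below. For H3K27ac, 10 macrophage markers averaged 13.6 to 39.3 points in the libraries of unstimulated control BMDMs and 1.11 to 7.08 in those of control HSCs, although the defining genes Msr1 and Marco were at 0 in every group. In diabetic mice they averaged 17.2 to 30.5 and 1.05 to 5.35 points, with Adgre1 and Lyz2 also at 0 in unstimulated diabetic BMDMs. The 10 stem and progenitor markers averaged 18.8 to 24.4 points in HSC libraries of either disease state and 1.78 to 17.3 in BMDM libraries. Erythroid markers averaged 14.6 to 44.6 points in HSCs against 7.84 to 21.4 in BMDMs, with Car1 at 0 in every group. Of the 5 erythroid genes, 4 were marked in HSCs and in stimulated diabetic BMDMs, and 3 in the other BMDM groups. In H3K4me3 they ran higher in unstimulated BMDMs, at 9.13 to 31.1 points in control and 7.60 to 19.5 in diabetic mice. The HSC libraries had 0 to 21.5 and 1.44 to 14.7 points. The part of erythroid genes in the differences between HSCs and BMDMs was not tested. The 12 LPS+IFN-γ response genes did not separate all control BMDMs, and Cxcl9 and Gbp5 among them were at 0 in every BMDM group. The unstimulated control libraries ran from 19.3 (replicate 5) to 30.6 points (replicate 6) and the stimulated ones from 19.1 (replicate 5) to 34.8, whereas diabetic libraries ran from 16.1 to 19.3 unstimulated and from 23.9 to 35.6 stimulated. Unstimulated control replicate 6 and stimulated control replicate 5 thus went against their labels on these genes, and unstimulated control replicate 5 had been doubted in earlier results of these data. Calls of Rab genes lost without these 3 doubted libraries are given with their values, as are those of the regulators Tbc1d15 and Dennd5a. For the other regulators named here, results without these libraries are not given. In H3K4me3 the marker ranges overlapped between HSCs and BMDMs, at 1.07 to 16.1 points and 6.28 to 28.7 for macrophage markers. Only 3 of these 10 markers were above 0 in unstimulated diabetic BMDMs.

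A gene's promoter was 1 kb to either side of any of its annotated start sites (GRCm38), and a peak there was ranked on its −log10 p, since that value orders peaks inside 1 list only. The promoter rank score runs from 100 points for the gene with the highest promoter peak of a library to 0, with the number of scored genes held equal over the libraries of a mark (12464 for H3K27ac and 8946 for H3K4me3). A score of 0 therefore means that a gene ranked below that number or had no peak. A difference of 10 points is a move by 10% of the scored genes, not a change in the amount of the mark. The windows of Rab2b, Rab6a, Rab13 and Rab24 also reach Tox4, Mrpl48, Rps27 and Prelid1, so a peak there may belong to either gene.

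Promoter sequences of 250 bases before to 50 after the start site were given by RefSeq (GRCm38.p6) for 48 of the 59 genes, in 60 windows. The 7 printed here carry the results that follow. Rab20 (chr8:11478591-11478890, minus strand) and Rab32 (chr10:10558158-10558457, minus strand) had the largest gains of H3K27ac rank in BMDMs over HSCs. Rab40b (chr11:121388202-121388501, minus strand) and Rab8a (chr8:72160950-72161249, plus strand) ranked lower in BMDMs. Rab23 (chr1:33719646-33719945, plus strand) is the one Rab gene past the test for stimulation. Rab11a (chr9:64737707-64738006, minus strand) and Rab39b (chrX:75578182-75578481, minus strand) had the highest and the lowest mean H3K27ac score. Capitals mark matches to the motifs listed after the sequences, except in Rab11a and Rab39b, where they mark CpG pairs.
Rab20: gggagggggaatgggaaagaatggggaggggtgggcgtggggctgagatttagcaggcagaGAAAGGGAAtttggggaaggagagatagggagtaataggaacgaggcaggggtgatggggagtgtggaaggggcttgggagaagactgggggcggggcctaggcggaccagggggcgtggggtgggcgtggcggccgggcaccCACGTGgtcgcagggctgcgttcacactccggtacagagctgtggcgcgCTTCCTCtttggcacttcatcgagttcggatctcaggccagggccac
Rab32: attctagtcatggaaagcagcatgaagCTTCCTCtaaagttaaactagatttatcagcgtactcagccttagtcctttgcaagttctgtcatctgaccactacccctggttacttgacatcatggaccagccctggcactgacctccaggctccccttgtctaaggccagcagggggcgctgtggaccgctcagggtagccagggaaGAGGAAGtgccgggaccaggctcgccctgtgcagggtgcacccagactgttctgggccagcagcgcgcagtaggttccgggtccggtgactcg
Rab40b: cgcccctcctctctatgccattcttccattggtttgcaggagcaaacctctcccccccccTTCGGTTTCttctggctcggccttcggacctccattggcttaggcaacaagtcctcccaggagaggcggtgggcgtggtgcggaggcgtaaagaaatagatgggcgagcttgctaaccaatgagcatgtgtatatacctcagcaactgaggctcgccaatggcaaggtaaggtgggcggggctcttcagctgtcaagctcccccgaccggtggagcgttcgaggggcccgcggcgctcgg
Rab8a: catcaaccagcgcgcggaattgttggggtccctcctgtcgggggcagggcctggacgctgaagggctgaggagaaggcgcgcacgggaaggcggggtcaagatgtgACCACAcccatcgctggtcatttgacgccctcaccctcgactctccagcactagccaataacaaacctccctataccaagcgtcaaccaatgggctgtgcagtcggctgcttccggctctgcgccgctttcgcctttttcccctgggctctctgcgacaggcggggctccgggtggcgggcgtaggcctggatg
Rab23: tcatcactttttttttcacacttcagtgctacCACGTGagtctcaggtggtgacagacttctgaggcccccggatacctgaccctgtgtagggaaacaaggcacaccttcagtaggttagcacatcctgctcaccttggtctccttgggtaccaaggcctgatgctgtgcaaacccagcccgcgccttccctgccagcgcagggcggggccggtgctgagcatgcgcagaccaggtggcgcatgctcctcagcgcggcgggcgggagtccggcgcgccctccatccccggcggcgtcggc
Rab11a: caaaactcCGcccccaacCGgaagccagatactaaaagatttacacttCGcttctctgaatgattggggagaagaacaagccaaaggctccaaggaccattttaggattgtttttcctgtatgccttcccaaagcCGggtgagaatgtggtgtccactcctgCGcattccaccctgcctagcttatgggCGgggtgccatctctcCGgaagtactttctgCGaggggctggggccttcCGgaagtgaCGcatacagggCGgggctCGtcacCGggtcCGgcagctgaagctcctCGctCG
Rab39b: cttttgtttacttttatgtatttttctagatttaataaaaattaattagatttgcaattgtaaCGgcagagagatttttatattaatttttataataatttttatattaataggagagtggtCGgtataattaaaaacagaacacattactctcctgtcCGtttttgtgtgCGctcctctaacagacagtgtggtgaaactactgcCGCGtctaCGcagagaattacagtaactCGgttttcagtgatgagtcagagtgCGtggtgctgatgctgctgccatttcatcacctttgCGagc

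Motifs were searched by their letters on both strands, with N for any base, and a match is a description and no evidence that a factor binds. Positions give the leftmost base of a match with the start site as 0. The PU.1 core GAGGAAG, named for a factor of the myeloid lineage, was in 13.3% of Rab windows and 13.6% of all 32851 windows, and 8 Rab genes held it. Rab32 held it at −223 on the opposite strand and at −43 on the gene strand, and Rab20 at 4 on the opposite strand. The interferon motif GAAANNGAA was in Rab19, Rab20 (at −189) and Rab40b (at −190, opposite strand), or 5% of Rab windows against 8.56% of all. The RUNX motif TGTGGT stood at −144 on the opposite strand of Rab8a and in 16.7% of Rab windows against 16.8% of all. The E-box CACGTG stood at −218 in Rab23, at −46 in Rab20 and in 10% of Rab windows against 7.15%. The GATA motif AGATAA was in 3.33% against 11.2% (Rab34 and Rab43). The AP-1 motif TGANTCA was in 5% against 7.81%, and the NF-kB motif GGGANTTCC in 0% against 1.68%. The TATA box letters TATAAA, searched on the gene strand, were in 1.67% against 8.32%, in Rab3b alone at −120. No match says only that these letters were not in the window.

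CpG pairs were dense at Rab promoters. The median Rab window held 19.5 CpG pairs against 7 over all windows, and the median ratio of observed to expected CpG was 0.734 against 0.384. Rab11a held 16 pairs at a ratio of 0.672 and 56.3% GC, while Rab39b, which encodes a neuronal Rab and ranked lowest here with a peak in 14 of 35 H3K27ac and 27 of 35 H3K4me3 lists, held 10 pairs at a ratio of 1.06 and 35.7% GC. Across the 48 genes, the mean score went with the CpG ratio by a Pearson r of 0.416 (Spearman rho 0.327) for H3K27ac and 0.536 (rho 0.444) for H3K4me3. These are descriptions across genes, which share the libraries, and are no test. The 2 marks at each gene are set against each other in the plot of mean scores by membrane step.

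**Figure D1:**
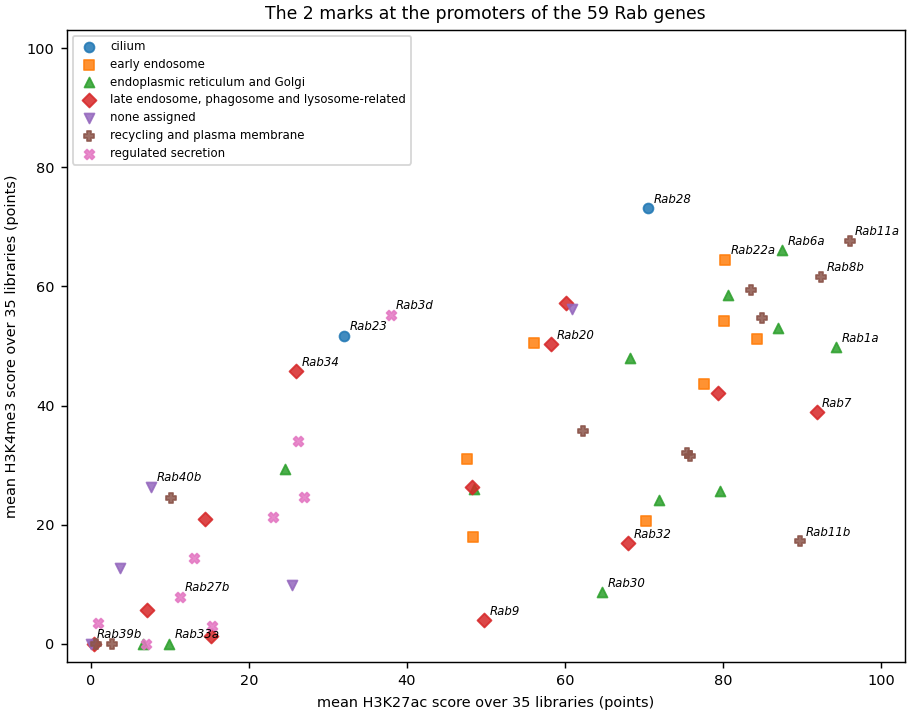
Mean H3K27ac score (x axis, points) and mean H3K4me3 score (y axis, points) of the 59 Rab genes over the 35 libraries of each mark, with 1 symbol per membrane step. Genes of regulated secretion lie at or below 38.0 points of H3K27ac, and Rab9, Rab30 and Rab11b lie low in H3K4me3 for their H3K27ac.

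An H3K27ac peak was present in all 35 lists at 45 of the 59 genes (76.3%), against 47.0% of all protein-coding genes, and an H3K4me3 peak at 31 (52.5%) against 36.9%. In all 70 lists the count was 29 (49.2%) against 30.3%. Long lists hold weak peaks, so occupancy was also counted in the 10000 highest peaks of each list. There, H3K27ac was present in all 35 lists at 25 Rab genes (42.4%, against 19.7% of all genes). In none were 7 of the 59 Rab genes and 45.0% of all genes. H3K4me3 was in the top 10000 of all 35 lists at 3 Rab genes (5.08% against 3.80%), namely Rab6a, Rab14 and Rab28. A single list held 30 to 44 Rab genes in its top 10000 for H3K27ac and 28 to 43 for H3K4me3.

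H3K27ac levels fell into a wide range. The mean score was above 75 points at 18 genes, between 25 and 75 at 22 and below 25 at 19. Highest were Rab11a, which serves the recycling endosome, at 96.0 points (lowest library 70.1), Rab1a of transport from the endoplasmic reticulum to the Golgi at 94.3, Rab8b of traffic to the plasma membrane at 92.5, Rab7 of the late endosome at 91.9 and Rab11b at 89.7. Lowest were Rab39b at 0.0862 points, Rab9b at 0.431, Rab25 of epithelial recycling at 0.662 and Rab3c of synaptic vesicles at 0.955. The 56 Rab genes tested had a median of 57.2 points against 44.5 for the 14411 genes tested, and the median SD within a group was 9.42 points. For H3K4me3 the median was 32.0 against 36.1 points, and the SD within a group was 24.6 points, so that ranks of this mark varied much more between replicates.

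Highest in H3K4me3 were Rab28 at 73.1 points, Rab11a at 67.7, Rab6a at 66.1, Rab22a at 64.5 and Rab8b at 61.6, and none passed a mean of 75. Rab17, Rab25, Rab33a, Rab39b and Rab44 scored 0 in all 35 H3K4me3 lists. The marks did not always rank a gene alike. Rab9, which returns cargo from late endosomes to the Golgi, had 49.8 points of H3K27ac and 4.0 of H3K4me3, Rab30 had 64.8 and 8.67, and Rab11b 89.7 and 17.3. The reverse held for Rab3d of secretory granules, with 38.0 points of H3K27ac and 55.3 of H3K4me3, for Rab34 (H3K4me3 45.8) and for Rab40b (7.64 and 26.4).

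**Figure D2:**
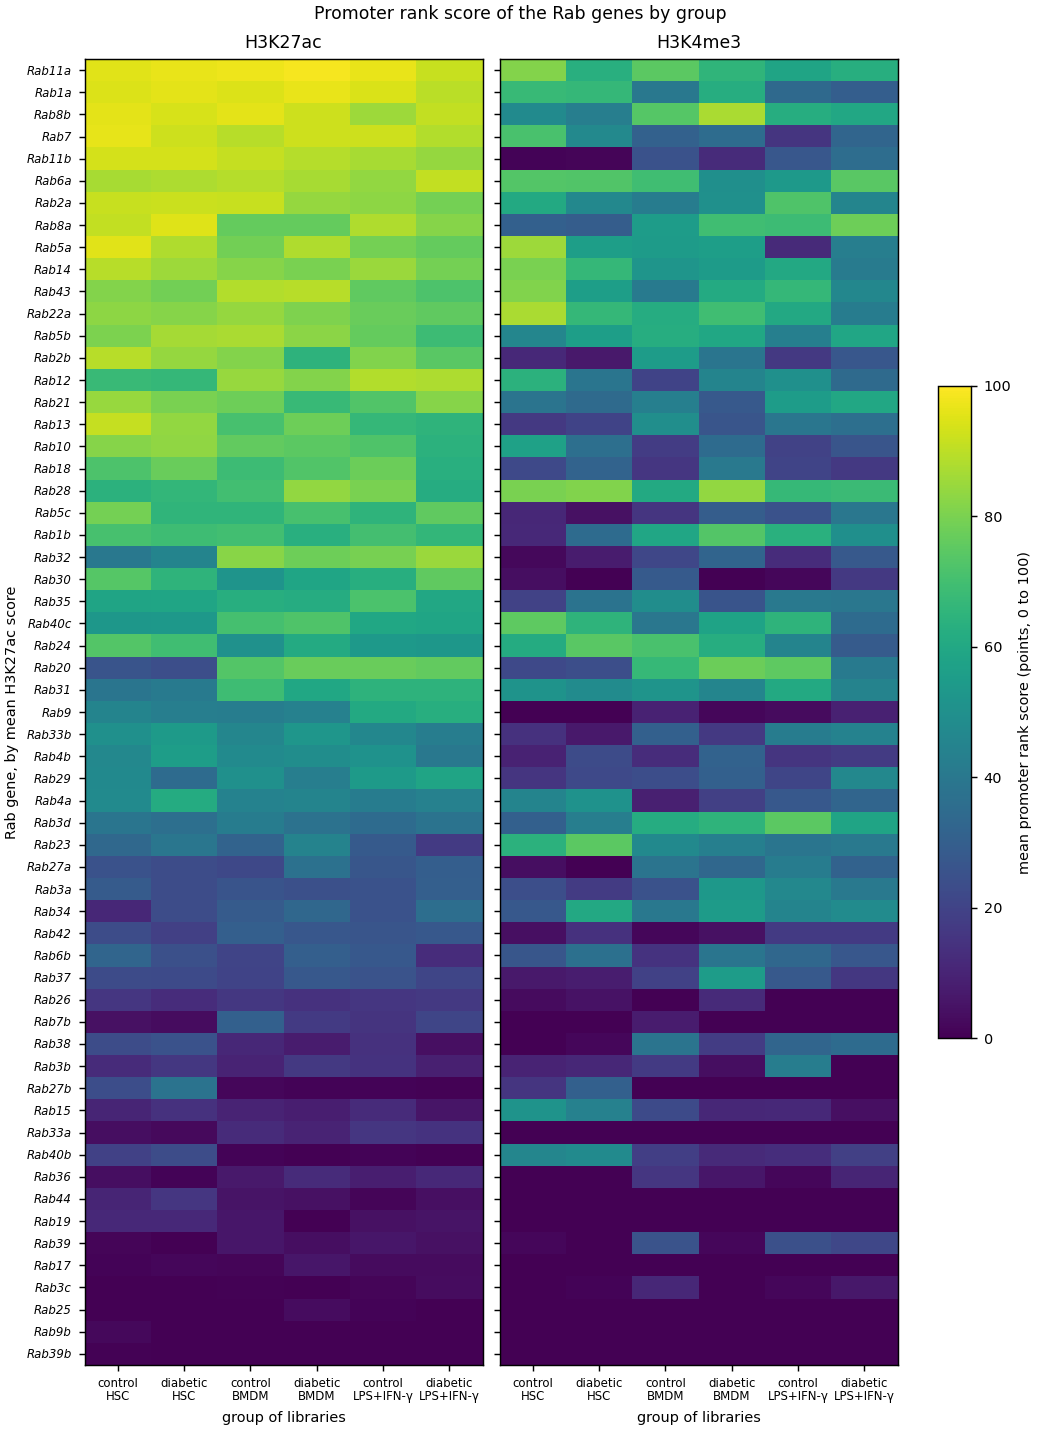
Mean promoter rank score (color, 0 to 100 points) of the 59 Rab genes in the 6 groups of each mark, with genes ordered by their mean H3K27ac score. Rab20 and Rab32 are brighter in all 4 BMDM groups than in HSCs, Rab27b and Rab40b are dark in BMDMs, and rows of H3K4me3 vary more between groups.

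Genes were grouped by the membrane step each protein is known for, and levels varied widely within most groups. The 8 genes of the early endosome (Rab4, Rab5, Rab21, Rab22a and Rab31) had a median H3K27ac mean of 74.0 points and a range of 47.6 to 84.3. The 11 genes of recycling and the plasma membrane had a median of 75.8 points and spanned 0.662 (Rab25) to 96.0 (Rab11a). The 12 genes of the endoplasmic reticulum and Golgi had a median of 70.1 points and ran from 6.68 (Rab19) to 94.3 (Rab1a). For the 12 genes of late endosomes, phagosomes and lysosome-related organelles the median was 49.1 points, from 0.431 (Rab9b) to 91.9 (Rab7). The 9 genes of regulated secretion (Rab3a to Rab3d, Rab26, Rab27a, Rab27b, Rab37 and Rab44) had a median of 15.3 points, and Rab3d was the highest at 38.0. None of those 9 was in the top 10000 peaks of all 35 H3K27ac lists, where 19.7% of all protein-coding genes were. For so small a group, a count of 0 is not shown to differ from that share. In the other groups 4 of 8 early endosome, 8 of 12 endoplasmic reticulum and Golgi and 8 of 11 recycling genes were there. So were 3 of 12 late endosome and phagosome genes, 1 of 2 cilium genes and 1 of 5 genes without a step.

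Rab genes with the same number and another letter encode close relatives, and 31 members fell into 14 such sets. In 4 sets, 2 members differed by over 40 points in mean H3K27ac score. Rab7 had 91.9 points and Rab7b, which serves transport from endosomes to the Golgi, had 15.2. Rab6a had 87.5 points against 24.5 for Rab6b, which is best known in neurons. Rab40c had 60.9 and Rab40b 7.64, both being Rab proteins with a SOCS box that joins ubiquitin ligases. Rab9 had 49.8 points and Rab9b 0.431. For H3K4me3 the sets past 40 points were Rab3 (Rab3d 55.3, Rab3c 3.58) and Rab11 (Rab11a 67.7, Rab11b 17.3).

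HSCs and unstimulated BMDMs were then compared in control and in diabetic mice to ask which Rab promoters changed rank between the precursor fraction and the macrophage. In control mice, H3K27ac rank differed at 12 of the 56 Rab genes tested (21.4%), 6 higher and 6 lower in BMDMs, by limma with a Benjamini-Hochberg adjusted p under 0.05. Over all 14411 genes, 17.3% passed, 8.91% higher and 8.38% lower. In diabetic mice 9 of 56 passed (16.1%), 3 higher and 6 lower, against 17.6% of all genes, 9.47% higher and 8.15% lower. The Rab genes were thus called about as often as genes at large. The median difference of the 56 was −0.703 points in control and 0.243 in diabetic mice, beside −0.493 and −0.517 over all genes. Rab20, Rab32, Rab40c, Rab8a, Rab27b and Rab40b passed in both comparisons, and each kept its direction. The groups compared share no library, but both tests use 1 estimate of the spread from all 35 libraries of the mark.

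Rab20, which is known for the maturation of phagosomes in macrophages, had the largest difference. In control HSCs its H3K27ac score ran from 8.18 to 36.2 points with a median of 27.2, and in control BMDMs from 51.4 to 94.9 with a median of 68.5. In diabetic HSCs it ran from 6.45 to 37.9 points (median 25.4), and the 5 diabetic BMDM libraries had 44.5, 77.5, 87.1, 82.4 and 94.5. The groups did not overlap in either comparison, and diabetic BMDM replicate 1 was the lowest of the macrophages. The difference was 47.3 ± 7.83 points (SE, n = 6 and 6, limma adjusted p = 2.63e-05) in control mice and 53.3 ± 8.21 (n = 5 and 6, adjusted p = 9.70e-06) in diabetic mice. The median rank of its promoter peak in the whole list moved from 9318.5 to 3713 in control and from 10392.5 to 2012 in diabetic mice. Stimulated BMDMs stayed in the same range, with medians of 80.8 points (control) and 78.5 (diabetic).

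Rab32, which works on melanosomes and other lysosome-related organelles and on phagosomes, ran from 25.3 to 48.9 points (median 44.8) in control HSCs and from 69.5 to 91.8 (median 83.8) in control BMDMs. Diabetic HSCs had 30.2 to 56.7 points (median 48.2), and the diabetic BMDM libraries had 90.1, 69.2, 84.2, 69.1 and 77.8. Again no HSC library reached the lowest BMDM library. The difference was 42.0 ± 6.18 points in control (adjusted p = 3.87e-06) and 32.9 ± 6.48 in diabetic mice (adjusted p = 0.000316). Its relative Rab38 went the other way in diabetic mice, at 25.4 ± 4.32 points (SD) in HSCs and 7.74 ± 6.33 in BMDMs (difference −17.6, adjusted p = 0.0263). In control mice the Rab38 groups overlapped and it did not pass.

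Rab40c passed in both comparisons with smaller shifts. Control HSCs ran from 49.7 to 57.9 points (median 51.5) and control BMDMs from 62.9 to 81.2 (median 69.8), a difference of 17.7 ± 5.75 (adjusted p = 0.0287). The diabetic difference was 19.1 ± 6.03 points (adjusted p = 0.0238). Leaving out single libraries ended the call in 4 of 12 fits in control mice (adjusted p up to 0.0736, without unstimulated BMDM replicate 2) and 5 of 11 in diabetic mice (up to 0.0701, without HSC replicate 6). Its relative Rab40b ranked lower in BMDMs, from 10.8 to 35.3 points (median 17.0) in control HSCs to 0 in 5 of 6 control BMDM libraries and 4.83 in the other. Diabetic HSCs had 16.9 to 28.1 points (median 23.0), and diabetic BMDMs had 0 in 4 of 5 libraries and 0.810 in the other. No HSC library overlapped with BMDMs. The Rab40b differences were −18.6 ± 2.64 (adjusted p = 2.04e-06) and −23.2 ± 2.77 points (adjusted p = 9.38e-08), and all 6 libraries of stimulated diabetic BMDMs were at 0 too.

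Rab27b, which with Rab27a serves the release of granules and exosomes, also ranked lower in BMDMs. It had 8.46 to 32.8 points (median 24.1) in control HSCs and 23.6 to 63.7 (median 33.8) in diabetic HSCs. Among BMDMs it was at 0 in 5 of 6 control libraries, with 9.78 in replicate 6, and at 0 in 4 of 5 diabetic libraries, with 4.50 in replicate 5. Control HSC replicate 4, at 8.46 points, was the one HSC library below the highest control BMDM library. The differences were −21.9 ± 4.15 points (adjusted p = 0.000185) and −37.3 ± 4.35 (adjusted p = 5.93e-08). A peak was still listed at the promoter in 4 of 6 control and 5 of 5 diabetic unstimulated BMDM libraries, at median list ranks of 56765.5 and 51669 beside 9668 and 7981.5 in HSCs, so the score of 0 was a low rank and not a missing peak in most.

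Rab8a, of transport to the plasma membrane, stayed high in all cells and ranked lower in BMDMs, with 81.3 to 98.2 points (median 90.6) in control HSCs and 70.7 to 87.9 (median 75.5) in control BMDMs. The control groups overlapped and the diabetic groups did not, at 90.3 to 98.3 points in HSCs and 68.0 to 83.4 in BMDMs. The differences were −14.2 ± 3.85 (adjusted p = 0.00792) and −18.7 ± 4.04 points (adjusted p = 0.000942).

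**Figure D3:**
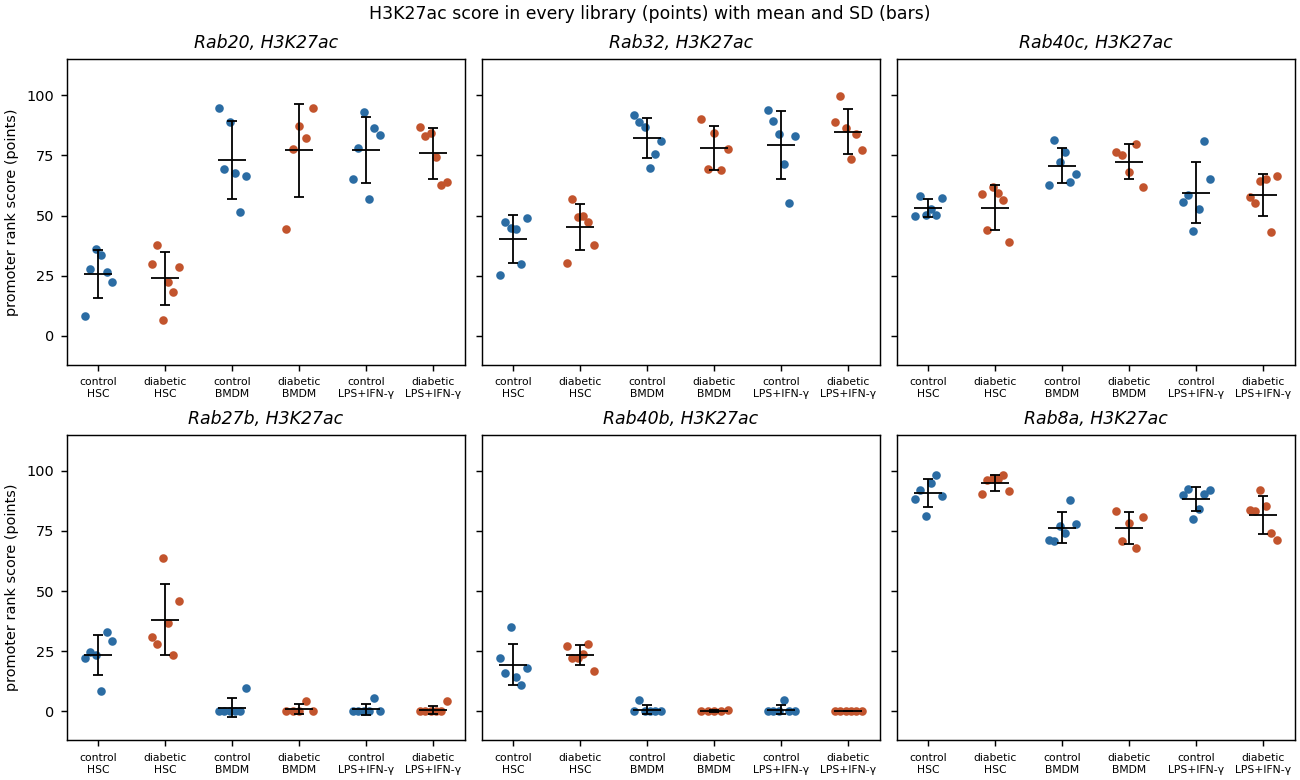
H3K27ac score (y axis, points) of every library in the 6 groups (x axis) for the 6 Rab genes past the threshold in both comparisons of BMDMs with HSCs, with blue for control and orange for diabetic mice, and with bars for the mean and SD of each group. Rab20, Rab32 and Rab40c are higher in unstimulated BMDMs, and Rab27b, Rab40b and Rab8a are lower.

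The other calls were found in 1 of the 2 comparisons. In control mice, Rab31, of transport between the Golgi and endosomes, was higher in BMDMs by 30.2 ± 7.21 points (69.0 against 38.8, adjusted p = 0.00262), and its diabetic difference was 18.7 points (adjusted p = 0.0814). The control call was lost under fold enrichment (adjusted p = 0.0528) and by exact permutation (adjusted p = 0.0576). Rab7b was higher (30.5 ± 28.0 SD against 4.50 ± 5.44 points, adjusted p = 0.0156), and this rested on 2 libraries. Without control unstimulated BMDM replicate 1 the difference was 16.8 (adjusted p = 0.0676), and without replicate 2 it was 22.0 (adjusted p = 0.0537). Rab34, of macropinocytosis and lysosome position, was higher by 17.8 ± 6.16 (adjusted p = 0.0397). Lower in control BMDMs were Rab24 of autophagy (−22.6 ± 7.52, adjusted p = 0.0325), Rab13 of cell junctions (−20.2 ± 7.15, adjusted p = 0.0455) and Rab5a of the early endosome (−16.5 ± 5.71, adjusted p = 0.0407). Without the 3 doubted control BMDM libraries, Rab34, Rab13 and Rab5a no longer passed, at adjusted p values of 0.122, 0.118 and 0.210, while Rab12 (22.6 ± 6.04, adjusted p = 0.00904) and Rab38 (−17.4 ± 5.86, adjusted p = 0.0416) did.

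In diabetic mice alone, Rab2b of the Golgi was lower by 19.7 points (SE 7.12, adjusted p = 0.0489) and Rab44, a large Rab with extra domains, by 11.2 points (SE 4.04, adjusted p = 0.0484), as was Rab38 above. Without diabetic HSC replicate 6, where Rab44 had 39.2 points, its difference was −6.53 (adjusted p = 0.197). Among 10 other settings of the processing, the Rab44 call was lost in 9 and the Rab2b call in 5. No Rab gene passed the test of the difference between the diabetic and the control comparison. The smallest p there was that of Rab27b, at −15.4 ± 6.01 points (adjusted p = 1), and Rab5a had 16.3 ± 8.28 and Rab27a 17.6 ± 9.34. Calls made in 1 kind of mouse are therefore not shown to differ from the other.

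**Figure D4:**
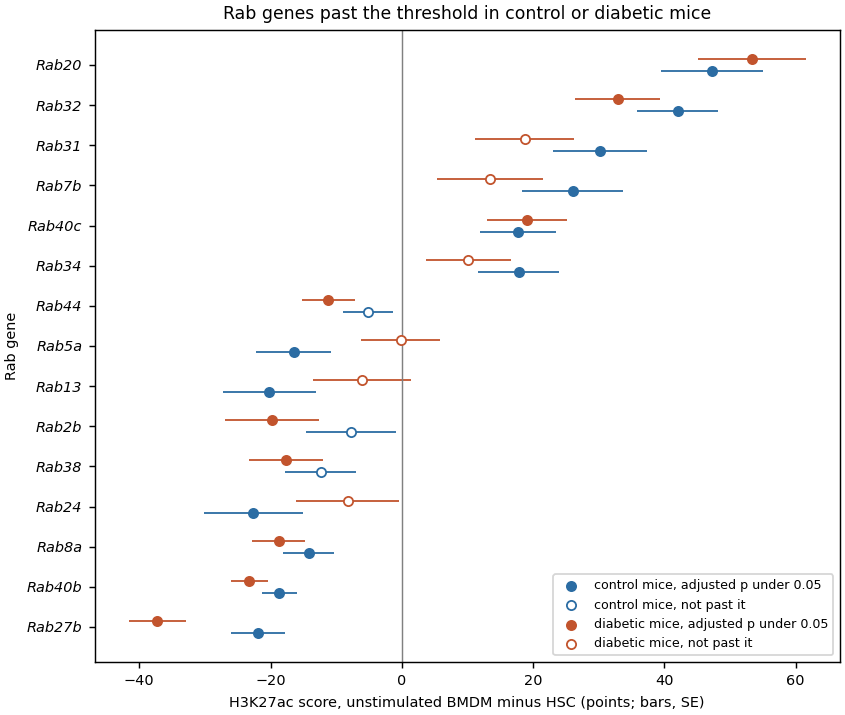
H3K27ac score of unstimulated BMDMs minus HSCs (x axis, points, bars for 1 SE) for the 15 Rab genes (y axis) past the threshold in control mice (blue), diabetic mice (orange) or both, where filled circles passed and open circles did not. The 6 genes with 2 filled circles have the same sign in both, and Rab5a lies near 0 in diabetic mice only.

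H3K4me3 gave no Rab gene past the threshold between HSCs and BMDMs, where 1.76% of the 12478 genes tested passed in control mice and 0.00801%, a single gene, in diabetic mice. The 220 genes called in control mice became 1 without the 3 doubted libraries, 4 with list length as a covariate, and 0 under fold enrichment. Without adjustment, a limma p under 0.05 was reached by 14 of 51 Rab genes and 2766 of all genes in control mice and by 10 and 1840 in diabetic mice. The exact permutation test made 0 calls in both. It left 12 and 5 of 51 Rab genes with an unadjusted p under 0.05, beside 2126 and 1457 of the 12478 genes. The median SE of a Rab difference was 15.4 points in control mice, against 5.82 for H3K27ac. Rab20 was again among the largest. It had 0 to 63.0 points (median 19.3) in control HSCs and 30.9 to 84.5 (median 77.0) in control BMDMs, a difference of 45.0 ± 15.4 (adjusted p = 0.0827). The diabetic difference was 53.5 ± 16.2 points (adjusted p = 0.105), with 0 to 59.8 in HSCs and 35.2 to 97.1 in BMDMs.

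Rab4a, Rab27a, Rab1b and Rab8b were read library by library because their mean difference over both marks was among the 8 largest, and none of them passed. Rab4a of early recycling had 21.4 to 58.3 points of H3K4me3 (median 45.8) in control HSCs with a median of 7.93 in control BMDMs, where 2 of 6 libraries were at 0. Rab27a had 0 to 14.7 points (median 1.33) in control HSCs, 3.14 to 87.0 (median 32.0) in control BMDMs and 0 in all 6 diabetic HSC libraries. Rab1b had 0 to 51.9 points (median 0) in control HSCs and 0 to 97.4 (median 77.8) in control BMDMs. Rab8b had 22.2 to 89.5 points (median 40.4) in control HSCs and 44.8 to 95.4 (median 75.8) in control BMDMs. Rab40b was at 10.5 to 80.2 points (median 51.1) in control HSCs and 0 to 46.0 (median 12.8) in control BMDMs, and Rab27b at 0 in all 23 BMDM libraries of this mark. All these groups overlapped, and for Rab27b, with a median of 0 in control and 17.7 points in diabetic HSCs, they did so at 0.

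Other Rab genes with the smallest p in H3K4me3 were, in control mice, Rab2b (43.4 ± 15.4 points, adjusted p = 0.0935), Rab43 of the Golgi (−39.6 ± 14.4, adjusted p = 0.10) and Rab12 (−44.2 ± 17.0, adjusted p = 0.118). In diabetic mice they were Rab37 of secretory granules (47.4 ± 15.6, adjusted p = 0.142), Rab27b (−30.6 ± 10.1, adjusted p = 0.142) and Rab40b (−36.0 ± 15.5, adjusted p = 0.250). For Rab27b and Rab40b the sign was that of H3K27ac, while Rab2b had the opposite sign in H3K27ac (−7.74 points in control mice, not past the test).

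Genes that act on Rab proteins were read from a list of 117, with 34 GAPs, 33 GEFs, 8 genes of GDI, escort and prenylation and 42 effectors. For H3K27ac, 12 were higher and 8 lower in control BMDMs than in HSCs among those tested (17.9%), and 11 were higher and 8 lower in diabetic mice (17.0%), shares near those of all genes. Sbf2, a DENN-domain GEF, had the largest difference, at 66.2 ± 7.08 points in control (79.4 against 13.2, adjusted p = 7.64e-09) and 60.8 ± 7.43 in diabetic mice (adjusted p = 1.51e-07). The GAP Tbc1d9 was higher by 45.7 and 37.9 points and the Rab11 effector Rab11fip5 by 42.2 and 28.3. Rin1 and Rin2, GEFs for Rab5, were higher by 15.3 and 15.0 points in control mice and by 12.8 and 16.9 in diabetic mice. Rabgap1l, a GAP, was lower in BMDMs by 36.3 points (SE 7.13) in control and 50.7 (SE 7.48) in diabetic mice. Lower as well in both comparisons were the Rab7 effector Plekhm1 (−27.9 and −24.3), the GEF Dennd3 (−23.9 and −26.6) and the effectors Rph3al (−24.3 and −13.6) and Sytl1 (−9.08 and −9.82). Effectors were called in both directions, 3 higher and 4 lower in control mice and 4 higher and 3 lower in diabetic mice. In H3K4me3, Dennd5a alone passed, at −56.4 ± 14.0 points in control mice (adjusted p = 0.0288). It did not pass without the 3 doubted libraries (−61.6, adjusted p = 0.0964), with list length as a covariate (−42.7, adjusted p = 0.308), under fold enrichment (adjusted p = 0.0841), by exact permutation (adjusted p = 0.120) or in 7 of 12 fits that left out 1 library (adjusted p up to 0.0674, without HSC replicate 3). Exact permutation can call a gene only where many genes reach its smallest p of 0.00216.

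Stimulation with LPS+IFN-γ was compared with unstimulated BMDMs of the same disease state. In control mice 0% of genes passed for H3K27ac, and neither did a Rab gene. Without adjustment, 784 genes and 4 Rab genes had a limma p under 0.05, and the exact permutation test gave 0 calls with 515 genes and 2 Rab genes under 0.05. The 4 were Rab8a (11.7 ± 3.85 points, adjusted p = 0.839), Rab9 (18.7 ± 7.90), Rab8b (−10.7 ± 4.32) and Rab43 (−12.7 ± 6.12), the last 3 at an adjusted p of 0.905. Without the 3 doubted libraries, 116 genes passed and still no Rab gene did. The Rab20 difference on stimulation was 4.09 points in control mice (95% interval −11.8 to 19.9) and −1.39 in diabetic mice (−18.0 to 15.2).

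In diabetic BMDMs, 2.99% of genes passed for H3K27ac, 1.14% higher and 1.85% lower after LPS+IFN-γ, and 1 of 56 Rab genes did. It was Rab23, which is known for restraining Hedgehog signalling and for traffic to the cilium. The 5 unstimulated libraries had 31.7, 39.5, 60.8, 46.8 and 45.6 points, and the 6 stimulated ones ran from 4.82 to 27.2 with a median of 18.1, so the groups did not overlap. The difference was −27.8 ± 6.18 points (limma adjusted p = 0.0108), and the median list rank of its peak moved from 6462 to 16156.5. Rank by fold enrichment gave −28.9 points with an adjusted p of 0.186, and the exact permutation test gave an adjusted p of 0.137 with no gene called. The latter can call a gene only where many genes reach its smallest p of 0.00216. In control BMDMs Rab23 ran from 18.4 to 50.6 points unstimulated and from 16.8 to 40.5 stimulated, a difference of −3.35 points (95% interval −15.3 to 8.57). The difference between the 2 responses was −24.5 ± 8.54 points and did not pass (adjusted p = 0.613).

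Rab28, another gene of ciliary traffic, had 83.7 ± 12.5 points (SD, n = 5) in unstimulated and 61.9 ± 15.5 (n = 6) in stimulated diabetic BMDMs. The difference of −21.7 ± 6.75 just missed the threshold (adjusted p = 0.0636). It passed without diabetic LPS+IFN-γ replicate 1 (−27.0, adjusted p = 0.0231) or 6 (−23.8, adjusted p = 0.0435) and without unstimulated replicate 5 (−27.0, adjusted p = 0.0326). It did not pass in the other 8 of 11 fits that left out 1 library, nor in any of 10 other settings of the processing. In control BMDMs it had 69.5 points unstimulated and 80.0 stimulated, and the difference between the responses was −32.2 ± 9.33 (adjusted p = 0.613). Rab21 of integrin uptake was higher in stimulated diabetic BMDMs by 14.4 ± 5.75 points (adjusted p = 0.153) and Rab9 by 18.8 ± 8.29 (adjusted p = 0.201), neither past the test, although the groups of Rab21 did not overlap. Of the regulators, the Rab7 GAP Tbc1d15 was higher by 20.8 ± 3.56 points (92.8 against 72.1, adjusted p = 0.00184), which fold enrichment (adjusted p = 0.111) and exact permutation (adjusted p = 0.209) did not call.

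**Figure D5:**
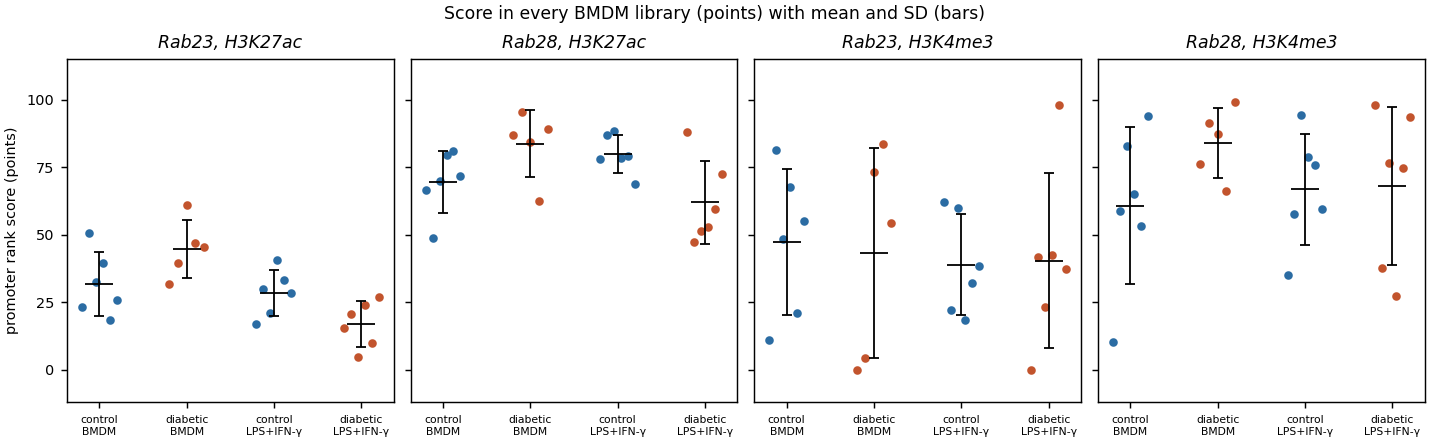
Score (y axis, points) of Rab23 and Rab28 in every BMDM library of the 4 BMDM groups (x axis), for H3K27ac on the left and H3K4me3 on the right, with bars for the mean and SD. The H3K27ac scores of Rab23 in stimulated diabetic BMDMs, 4.82 to 27.2 points, lie below all unstimulated diabetic libraries, and the H3K4me3 groups overlap.

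In H3K4me3, 0% of genes passed for stimulation in control and in diabetic BMDMs, and 568 and 917 genes had an unadjusted limma p under 0.05 (366 and 580 by the exact permutation test). Among them were 4 Rab genes in control and 3 in diabetic BMDMs. By the smallest p in each direction, whether under 0.05 or not, the genes named were, in control BMDMs, Rab30 (−26.9 ± 10.1 points, adjusted p = 0.993), Rab5a (−43.1 ± 16.5, adjusted p = 0.997), Rab3b (25.5 ± 11.7) and Rab2a (30.5 ± 16.5), the last 2 at an adjusted p of 1. In diabetic BMDMs they were Rab37 (−39.0 ± 15.6, adjusted p = 0.568), Rab20 (−36.5 ± 16.2, adjusted p = 0.609), Rab21 (31.7 ± 17.9) and Rab11b (23.4 ± 13.5). Rab20 H3K4me3 ran from 35.2 to 97.1 points unstimulated and from 16.5 to 74.5 stimulated, while its H3K27ac medians were 82.4 and 78.5. The H3K4me3 response of Rab30 differed between diabetic and control BMDMs by 43.5 ± 14.7 points (adjusted p = 0.746).

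Diabetic and control cells of the same kind were compared last. For H3K27ac, 0% of genes passed in HSCs, 0.0139% (2 genes) in unstimulated BMDMs and 0% in LPS+IFN-γ BMDMs, and 0 Rab genes did in any. Genes at an unadjusted limma p under 0.05 numbered 253, 908 and 661, with 1, 4 and 2 Rab genes among them, and the exact permutation test gave 376, 563 and 444 genes with 1, 0 and 3 Rab genes. In HSCs the smallest p among Rab genes was that of Rab27b, which had 8.46 to 32.8 points (median 24.1) in control and 23.6 to 63.7 (median 33.8) in diabetic libraries. These overlap, and the difference was 14.7 ± 4.15 points (95% interval 6.26 to 23.0, adjusted p = 1). Rab34 had 12.1 ± 6.16, Rab29 −12.6 ± 7.55 and Rab5c −13.5 ± 8.85 points, each at an adjusted p of 1.

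In unstimulated BMDMs the Rab genes with the smallest p in each direction were Rab2b (−17.0 ± 7.12 points, adjusted p = 0.670), Rab27a (15.6 ± 6.76, adjusted p = 0.707), Rab23 (13.2 ± 6.18, adjusted p = 0.750) and Rab21 (−10.7 ± 5.75, adjusted p = 0.824). Tbc1d15 was 1 of the 2 genes that passed, at 72.1 points in diabetic and 91.6 in control libraries (−19.5 ± 3.56, adjusted p = 0.0218). That call was lost without the 3 doubted libraries (−18.6, adjusted p = 0.367), under fold enrichment (adjusted p = 0.512) and by exact permutation (adjusted p = 1), each with 0 genes called in all. The permutation test could hardly have called it, since its smallest p of 0.00216 is adjusted over all genes tested. It was also lost without diabetic unstimulated replicate 1, 2 or 5 or control unstimulated replicate 3 or 5, at adjusted p values of 0.0761 to 0.153. That comparison and the stimulation of diabetic BMDMs share the unstimulated diabetic libraries. In LPS+IFN-γ BMDMs, Rab28 had −18.1 ± 6.44 points, Rab6b −15.0 ± 7.15, Rab34 10.99 ± 6.16 and Rab21 8.90 ± 5.48, each at an adjusted p of 1. For Rab20, the disease difference was −1.95 points in HSCs (95% interval −17.8 to 13.9), 4.13 in unstimulated (−12.5 to 20.7) and −1.35 in LPS+IFN-γ BMDMs (−17.2 to 14.5). For Rab32 the values were 4.94 (−7.56 to 17.4), −4.16 (−17.3 to 8.96) and 5.48 (−7.03 to 18.0), so shifts of the size seen between HSCs and BMDMs lay outside these intervals.

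H3K4me3 likewise gave 0% of genes past the threshold for disease in HSCs, in unstimulated BMDMs and in LPS+IFN-γ BMDMs. The unadjusted limma p was under 0.05 at 365, 549 and 817 genes (332, 411 and 472 by exact permutation), with 1, 3 and 2 Rab genes among them. Rab3b, of regulated secretion, stood out in LPS+IFN-γ BMDMs, at 0 in all 6 diabetic libraries and at 0 to 75.9 points (median 51.8) in control libraries. The groups overlapped at 0, and the difference was −42.5 ± 11.7 points (adjusted p = 0.332). In the same cells Rab20 had −34.0 ± 15.4, Rab5a 31.0 ± 16.5 and Rab6a 20.5 ± 13.7 points. In HSCs Rab34 was at 0 to 42.0 points in control and 13.9 to 86.8 in diabetic libraries (32.8 ± 16.1, adjusted p = 1), and Rab5a (−29.3 ± 16.5), Rab43 (−24.7 ± 14.4) and Rab27b (15.0 ± 9.59) were next. In unstimulated BMDMs these were Rab30 (−28.5 ± 10.6 points), Rab37 (35.7 ± 15.6), Rab39 (−23.9 ± 11.4) and Rab26 (11.7 ± 6.37), all at an adjusted p of 1. The disease difference in HSCs minus that in unstimulated BMDMs passed for no Rab gene in either mark. It is no further test, being the difference between the diabetic and control comparisons of BMDMs with HSCs with its sign reversed.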

How the data were processed

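ChIP-seq peak lists for H3K27ac and H3K4me3 were analysed in 70 of 106 samples, and the 36 inputs were not used here. Per the submitters' processing notes, Trim Galore 0.3.3, cutadapt 1.8, FastQC 0.11.3, Bowtie2 2.2.6, Picard 2.18.14 and 2.19.2, bedtools 2.19.1 and MACS2 2.2.7.1 were used, with GRCm38/mm10. Reads were single, of 50 bp. The authors called peaks per library, with the input of the same cells named in each peak. The deposited score is 10 times −log10 q, as a whole number. The deposited fold enrichment is a ratio over local background. The deposited −log10 p and −log10 q (lowest 1.30) are p and q values within 1 list. Depth is unknown, and fewer cells of a type and a lower mark per cell cannot be told apart.

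Summits of 1 interval were joined to 1 peak. Promoters reached 1 kb to either side of 93513 GENCODE M21 start sites. Genes were ranked in each library on their highest promoter −log10 p. The first K genes were scored 100 × (K + 1 − rank)/K and all others 0, with K the smallest number of genes with a promoter peak in any list of the mark. Genes above 0 in at least 5 of 35 lists were tested with limma 3.58.1 (6 group means, trend), two-sided, with Benjamini-Hochberg adjustment over all genes tested and a gene was called where that adjusted p was under 0.05. The fit was run on simulated scores with known shifts in genes of mid-range mean score, and its outcome is not given here. Shifts in genes near 0, such as Rab27b and Rab40b, were not simulated. Named were up to 8 members past the threshold per direction, otherwise the 2 with the smallest p. Members, lists and tests were chosen with earlier results of these data known. Where nothing ties libraries to separate animals, p-values measure the spread between libraries. Python 3.11.15, numpy 2.4.6, pandas 2.3.3, scipy 1.17.1, matplotlib 3.10.9 and R 4.3.3 were used. The exact permutation test ran over 924 arrangements of 6 against 6 libraries or 462 of 5 against 6, with a smallest p of 0.00216. After adjustment over all genes tested, a gene can pass it only where many genes reach so small a p. Where it called 0 genes, a missing call therefore says little about 1 gene.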

Additional observations from a re-analysis of the deposited data

Results flagged for a closer look

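Among 78 groups of 5 or 6 libraries, a value was singled out where its gap to the nearest other library passed Dixon's critical value. For normally distributed values, chance does so in about 1 of 20 groups. Most flagged values were of Rab genes at 0 in all but 1 BMDM library. There any value above 0 is singled out whatever its size, so that rate does not apply to them. Rab27b H3K27ac was above 0 in 1 library of each BMDM group, at 9.78 points in unstimulated control replicate 6, 4.50 in unstimulated diabetic replicate 5, 5.62 in control LPS+IFN-γ replicate 5 and 4.27 in diabetic LPS+IFN-γ replicate 6. Rab40b H3K27ac was at 4.83 in unstimulated control replicate 2, 0.810 in unstimulated diabetic replicate 6 and 4.78 in control LPS+IFN-γ replicate 4, with the other libraries of those groups at 0. Of these, 2 libraries went against their labels on the LPS+IFN-γ response genes (unstimulated control replicate 6 and control LPS+IFN-γ replicate 5).

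Rab8b H3K27ac was low at 85.5 points in control HSC replicate 3 (next library 96.6) and at 70.7 in diabetic LPS+IFN-γ replicate 5 (next 88.9). Control unstimulated BMDM replicate 1 held 33 Rab genes in its top 10000 H3K27ac peaks (next library 37). The median H3K27ac score of the Rab genes was 36.2 points in control HSC replicate 1 (next 44.6). No Rab gene passed any of the 6 tests of a difference between effects. These are not all separate tests. In each mark, the disease difference in HSCs minus that in BMDMs is the difference between the BMDM against HSC comparisons with its sign reversed.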

How the results depend on the processing

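Ranking by fold enrichment in place of −log10 p lowered the Rab genes called from 12 to 3 in control and from 9 to 4 in diabetic mice for BMDMs against HSCs in H3K27ac (1176 and 1177 genes called in all), and from 1 to 0 for stimulation of diabetic BMDMs (41 genes). Rab20, Rab32 and Rab40b passed in both, and Rab27b in diabetic mice only (control −11.5 points, adjusted p = 0.410). Under it the H3K4me3 difference of Rab20 in control mice reversed, to −0.495 points (adjusted p = 0.998). The exact permutation test called 6 Rab genes in control mice (1347 genes) and 0 for stimulation of diabetic BMDMs (0 genes). In H3K4me3, BMDMs against HSCs of control mice gave 1 Rab gene (Rab1b, 679 genes called) as percentiles over all genes. Without the shortest list, a setting chosen after seeing the data, there were 2 (Rab1b and Rab20, 830 genes). The cause was not tested.

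Leaving out single libraries gave 8 to 11 calls in control and 6 to 9 in diabetic mice for H3K27ac BMDMs against HSCs, 1 to 2 for stimulation of diabetic BMDMs, 0 to 3 for H3K4me3 in control mice (3 without HSC replicate 1, 1 without unstimulated BMDM replicate 4) and 0 in the other tests. Rab20, Rab32, Rab27b, Rab40b, Rab8a, Rab31 and Rab23 passed in every such fit. Calls were lost for Rab34 in 8, Rab13 in 9, Rab5a in 9 and Rab24 in 6 of 12 fits (highest adjusted p 0.104, 0.122, 0.108 and 0.106). In diabetic mice they were lost for Rab2b in 9, Rab44 in 8 and Rab38 in 3 of 11 (0.170, 0.197 and 0.0722).

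Occupancy in all lists depended on list length: 45 Rab genes for H3K27ac became 25 in the top 10000 peaks, and 31 for H3K4me3 became 20 in the top 20000 and 3 in the top 10000. Same-numbered libraries deviated together by correlations of −0.350 to 0.449, over 0.1 for all pairs in 0 of 14 comparisons, so the numbers were not taken to pair libraries. Without the 3 doubted control BMDM libraries 11 Rab genes passed in control mice, 9 of the 12 and 2 others (Rab12 and Rab38). With the replicate block 12 and 8 Rab genes passed in control and diabetic mice, and Rab44 was lost (adjusted p = 0.0709). Over 10 alternative settings, calls in diabetic mice were lost most often for Rab44, in 9 (highest adjusted p 0.292), and Rab2b, in 5 (0.217). In control mice they were lost most often for Rab13, in 5 (0.693), Rab34, in 4 (0.197), and Rab5a, in 4 (0.210). A library correlated best with its own number in 3 of 6 and 2 of 5 cases for H3K27ac stimulation. A narrower window (500 bp), the summit inside the window, peaks with a −log10 q of 3 or more, a looser filter, list length as a covariate and 4 H3K4me3 libraries left out for unclear scaling moved no count of Rab genes called by over 1.5 times. Counts over all genes moved more: with list length as a covariate, H3K4me3 calls in control BMDMs against HSCs went from 220 to 4, and they were 30 without those 4 libraries and 89 with the stricter q. For disease in unstimulated BMDMs (H3K27ac) the 2 genes became 4 with list length, 3 with the looser filter, 1 with the narrower window, with the summit or as percentiles, and 0 without the 3 doubted libraries. Depth is unknown, so a low score cannot be told from a shallow library.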
